A study of Rattus norvegicus with 10 samples.

Results

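The cardiac myosin heavy and light chains are the subject here, with the kinase and the binding protein that act on them in the heart. Their 9 genes (Myh6, Myh7, Myh7b, Myl2, Myl3, Myl4, Myl7, Mylk3 and Mybpc3) were taken by symbol from the 18025 genes of the deposited table, and 9 of the 9 passed the filter on low expression. The rule names the genes and uses no measured value, but it was written with earlier results of these data known. The hearts came from wild-type Sprague-Dawley rat fetuses at embryonic day 19.5, carried either by control dams given citric acid buffer (CON) or by dams made hyperglycemic with streptozotocin, a toxin of the insulin-producing beta cells, in the same buffer (HG). Dams and males were wild-type rats of 3 months. The study's methods place the injections after mating, while its introduction places the hyperglycemia before pregnancy. Stranded mRNA libraries were made, 5 per group, from what the labels call heart tissue, whereas a figure legend of the study speaks of isolated cardiomyocytes. Hemoglobin transcripts were present in each library (below). The sources do not say whether a library is 1 heart or several, nor which libraries share a dam, so that every p-value below measures the spread between libraries only.

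Myosin is the motor of the thick filament of muscle. Each molecule has a pair of heavy chains, whose heads split ATP and pull on actin, and each head carries an essential and a regulatory light chain. The heart has its own set: Myh6 encodes the fast α heavy chain, Myh7 the slower β heavy chain and Myh7b a related chain that is mostly kept low, Myl2 and Myl3 are the regulatory and essential light chains of the ventricle, and Myl7 and Myl4 are their counterparts in the atrium, of which Myl4 is also made in the fetal ventricle. In rodents the ventricle uses mainly β heavy chain before birth and changes to α afterwards under thyroid hormone. Mylk3 encodes the cardiac kinase that phosphorylates the regulatory light chain, and Mybpc3 the cardiac myosin-binding protein C, which holds heads near the filament and is mutated, as Myh7 is, in inherited cardiomyopathy.

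The heavy chain genes also carry microRNAs in their introns, known as the myomiRs, so the level of a host transcript bears on a microRNA precursor as well. The mature sequences on the strand of the host gene (RefSeq, build GRCr8) are shown because they tie the 3 heavy chains to each other, and capitals mark the seed, bases 2 to 8 from the 5′ end, by which a microRNA finds its targets.
rno-miR-208a-3p: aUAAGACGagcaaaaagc
rno-miR-208b-3p: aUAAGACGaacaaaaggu
rno-miR-499-5p: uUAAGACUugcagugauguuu
rno-miR-208a-5p: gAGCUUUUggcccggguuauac
rno-miR-208b-5p: aAGCUUUUugcucgcguuau
rno-miR-499-3p: aACAUCACagcaagucugugcu
The first lies in Myh6 at chr15:32395568-32395585 (minus strand), the second in Myh7 at chr15:32421648-32421665 (minus strand) and the third in Myh7b at chr3:164570616-164570636 (plus strand). The 3p arms of miR-208a and miR-208b have the same seed, UAAGACG, and that of miR-499-5p is UAAGACU. The 5p arms of miR-208a and miR-208b also share a seed, AGCUUUU. Small RNA was not part of these libraries, so the microRNAs themselves were not measured, and the values below are those of the host messenger RNA. Myh6 and Myh7 are neighbours among the protein-coding genes of the chromosome.

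The values are FPKM, reads scaled to the length of the gene and the size of the library, and can be compared between genes because they are per length. Reads on genes, recovered from the step between FPKM values, numbered 17639895 to 18240006 in CON and 16672876 to 19109844 in HG libraries. The member with the fewest reads was Mylk3 with 3990 to 5064 reads, so that counting error was at most 1.58% of a value, and differences between libraries of a group exceeded it. Genes were compared as log2(FPKM + 0.1) with limma over 14542 genes (mean FPKM of 0.1 or more), and a gene was called at a Benjamini-Hochberg adjusted p under 0.05. The median log2 fold change of all genes tested was 0.09, and it was 0.01 with median-of-ratios scaling and 0.02 after quantile normalization. The groups also differed in blood and in cardiomyocyte transcripts: hemoglobin genes held 2.27 to 4.21% of the FPKM in CON and 1.86 to 2.56% in HG, and 7 of 8 general cardiomyocyte markers fell (below).

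Of these genes 5 fell in HG hearts, 1 rose and 3 were not called. Myh6 fell to 48.9% of its CON level, while Myh7, Myl2, Myl3 and Mybpc3 fell to between 75.7 and 83.0%. In tissue of mixed cells, fewer cardiomyocytes and less RNA per cardiomyocyte cannot be told apart. Myh7b and the atrial light chains Myl4 and Myl7 had similar mean levels in both groups, and Mylk3 rose slightly. Of all genes tested, 40.1% were called in either direction, 11.8% as lower and 28.4% as higher. This balance turned with the scaling, to 17.5% lower and 15.6% higher with median-of-ratios factors and 15.9% lower and 18.0% higher after quantile normalization. The groups did not overlap in 6 members, of which 5 were lower and 1 higher in HG, whereas 27.4% of all genes did not overlap, 8.12% lower and 19.3% higher. The median log2 fold change of the members was -0.27. One member, Myh6, passed the study's own threshold of an adjusted p under 0.05 with an absolute log2 fold change above 1, which 1.94% of genes did. Together the 9 transcripts made up 3.44 ± 0.0635% of all FPKM in the 5 CON libraries and 2.84 ± 0.147% in the 5 HG libraries (mean ± SD).

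**Figure D1:**
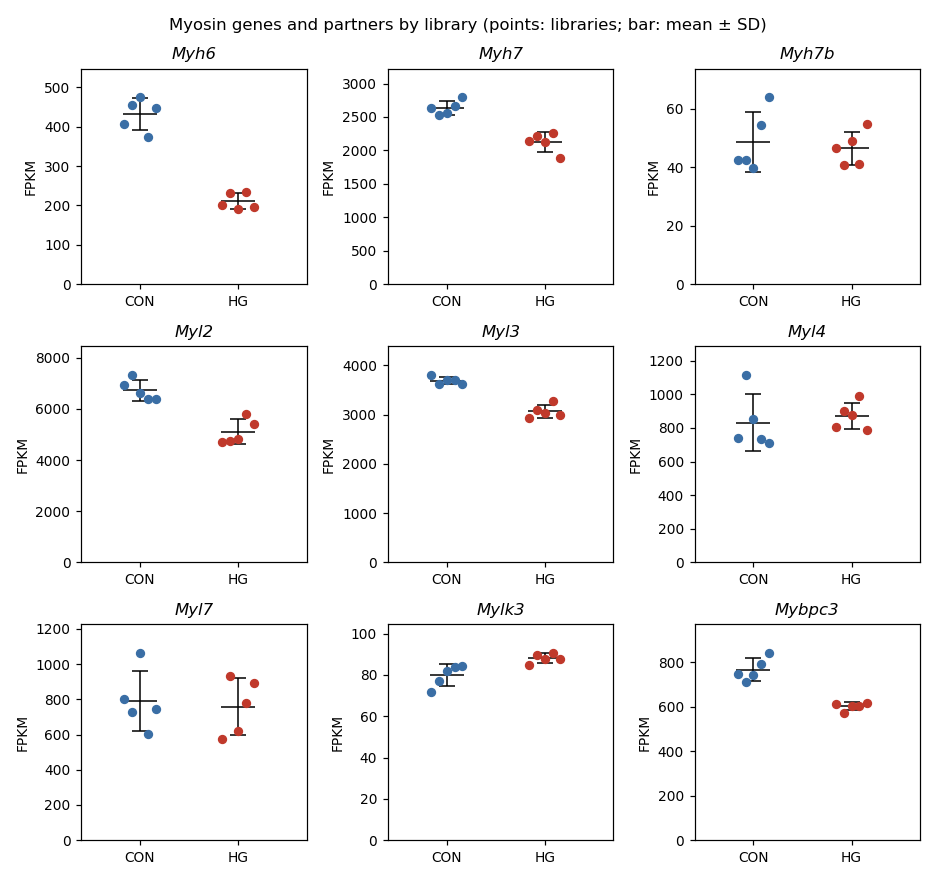
FPKM of the 9 genes in each library, on linear axes from 0, for 5 CON (blue) and 5 HG (red) libraries; points are libraries and bars are the mean ± SD. Every HG library lies below every CON library in Myh6, Myh7, Myl2, Myl3 and Mybpc3 and above in Mylk3, and the groups overlap in Myh7b, Myl4 and Myl7.

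Myh6 (NCBI Gene 29556), the α heavy chain, stood at 407, 454, 476, 374 and 447 FPKM in CON libraries 1 to 5 and at 202, 232, 190.4, 235 and 197 FPKM in HG libraries 1 to 5. The lowest CON library was far above the highest HG library. The mean level went from 432 ± 40.6 to 211 ± 20.7 FPKM (SD, n = 5 each), and the log2 fold change was -1.03 (± 0.0756 standard error, 95% interval -1.20 to -0.87, adjusted p = 1.97e-06 from limma). Among all genes by abundance, Myh6 ranked between 169 and 206 in the CON libraries and between 294 and 348 in the HG libraries. The interval spans the study's threshold of -1. Its log2 fold change was -0.96 after quantile normalization and rounded to -1.0 without CON library 3 and without HG library 3. Without CON libraries 2 and 3 together it was also -0.96, and in these 4 of the 23 alternatives it did not pass that threshold, while the adjusted p was at most 0.000152 in each of the 23. Myh6 also stands on the study's list of genes associated with CaMKIIδ, which was drawn from the same libraries and is no independent evidence of its direction.

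Myh7 (29557), the β heavy chain, was the main heavy chain of these fetal hearts in both groups. Its level was 2628, 2532, 2564, 2671 and 2803 FPKM in CON libraries 1 to 5 and 2141, 2218, 2132, 2257 and 1881 FPKM in HG libraries 1 to 5. The HG libraries were lower without overlap, and HG library 5 was the lowest. HG was at 80.5% of CON, a log2 fold change of -0.31 ± 0.0543 (± SE; adjusted p = 0.000751, limma). Myh6 and Myh7 are very similar in sequence, and the sources used here do not say how reads that match both were counted, so that the exact level of each is uncertain.

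Myh7b (311570), the third heavy chain, was present at a much lower level, 42.5, 42.5, 39.9, 54.4 and 64.2 FPKM in CON and 46.5, 40.8, 49.0, 41.3 and 54.8 FPKM in HG libraries 1 to 5. The groups overlapped almost fully, and CON library 5 was the highest. Its log2 fold change was -0.05 with a 95% interval of -0.33 to 0.22 (adjusted p = 0.774, limma), which includes a fall of the size seen in Myh7. Of the 3 microRNA hosts, Myh6 and Myh7 thus fell and Myh7b was not called.

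The share of Myh6 in the sum of Myh6 and Myh7 asks whether the pair fell alike, and a factor that scales a whole library cancels in it. Quantile normalization is no such factor, and under it the log2 fold changes were -0.96 for Myh6 and -0.19 for Myh7. It was 13.4, 15.2, 15.7, 12.3 and 13.8% in CON libraries 1 to 5 and 8.60, 9.47, 8.20, 9.42 and 9.47% in HG libraries 1 to 5. All HG libraries lay below all CON libraries. The mean share went from 14.1 ± 1.37% to 9.03 ± 0.595% (SD, n = 5 each), a difference of -5.04 percentage points (two-sided exact permutation test over 252 divisions, p = 0.00794, the smallest that 5 against 5 allow; adjusted p = 0.0317 over 4 shares). The 2 heavy chains therefore did not fall in proportion. With each library left out in turn, the difference stayed between -5.48 and -4.64 percentage points. Without CON libraries 2 and 3 together, a choice made after the values were seen, it was -4.12 percentage points (exact permutation test, p = 0.0179).

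**Figure D2:**
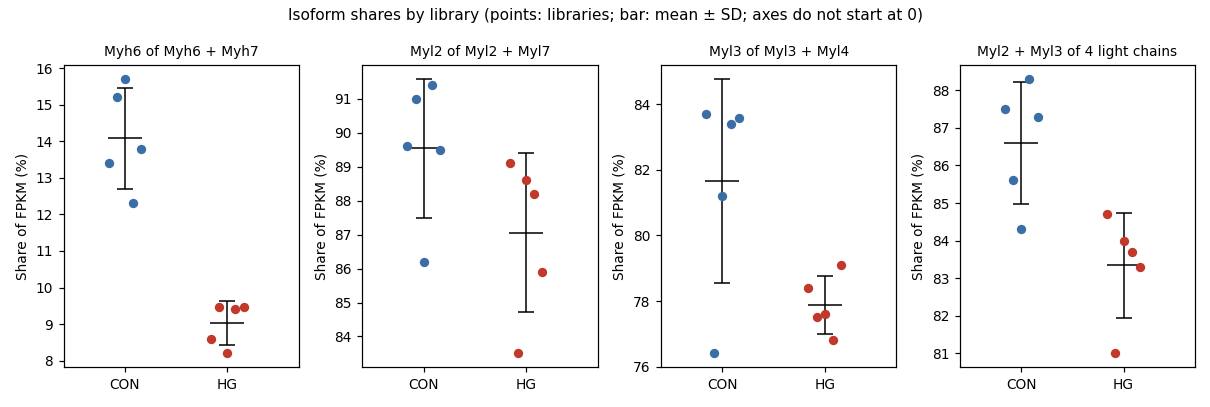
Share of FPKM in percent held by Myh6 in Myh6 plus Myh7, by Myl2 in Myl2 plus Myl7, by Myl3 in Myl3 plus Myl4, and by the ventricular pair in the 4 light chains, per library for 5 CON (blue) and 5 HG (red) libraries; bars are the mean ± SD and the axes do not start at 0. The Myh6 share separates the groups, with CON at 12.3 to 15.7% and HG at 8.20 to 9.47%, and the light chain shares overlap.

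Among the light chains, Myl2 (363925), the ventricular regulatory chain, was the most abundant of the 9 genes and held rank 2 or 3 among all genes in each library. It was at 6954, 7343, 6638, 6374 and 6387 FPKM in CON libraries 1 to 5 and at 4714, 4738, 4825, 5802 and 5420 FPKM in HG libraries 1 to 5. All HG libraries were lower, and HG libraries 4 and 5 came nearest to CON. HG was at 75.7% of CON, a log2 fold change of -0.41 ± 0.0702 (± SE; adjusted p = 0.000772, limma).

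Myl3 (24585), the ventricular essential chain, varied least within CON, with 3811, 3627, 3693, 3694 and 3625 FPKM in CON libraries 1 to 5. The HG libraries held 2926, 3097, 3035, 3271 and 2990 FPKM, again with no overlap. HG was at 83.0% of CON, a log2 fold change of -0.27 ± 0.0434 (± SE; adjusted p = 0.000475, limma). Quantile normalization, which gives genes of equal rank the same value, moved the log2 fold change of Myl2 to -0.00 and that of Myl3 (rank 5 to 8 in each library) to -0.04, and neither was then called.

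Myl4 (688228), the atrial and fetal essential chain, was at 740.0, 1118, 856, 736 and 712 FPKM in CON libraries 1 to 5 and at 807, 899, 879, 988 and 791 FPKM in HG libraries 1 to 5. The highest library of all was CON 2, and the other 4 CON libraries lay in or below the HG range. The log2 fold change was 0.08 with a 95% interval of -0.16 to 0.33 (adjusted p = 0.582, limma), and -0.01 with median-of-ratios scaling. With each library left out in turn it ranged from 0.03 (without CON library 5) to 0.20 (without CON library 2, adjusted p = 0.0512). Without CON libraries 2 and 3 together, a choice made after the values were seen, it was 0.25 (adjusted p = 0.0190, limma).

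Myl7 (289759), the atrial regulatory chain, was at 804, 728, 1066, 603 and 748 FPKM in CON libraries 1 to 5 and at 575, 934, 618, 777 and 892 FPKM in HG libraries 1 to 5. Its spread within each group was the widest of the members relative to the mean, at 21.7% in CON and 21.1% in HG. The log2 fold change was -0.06 with a 95% interval of -0.40 to 0.29 (adjusted p = 0.801, limma), so that a fall of the size seen in Myl2 lies just outside the interval and a smaller one could not be told from no change.

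The balance of ventricular and atrial light chains was compared as shares in each library. The ventricular pair held 87.5, 85.6, 84.3, 88.3 and 87.3% of the 4 light chains in CON libraries 1 to 5 and 84.7, 81.0, 84.0, 83.7 and 83.3% in HG libraries 1 to 5. Only CON library 3 and HG library 1 crossed, and the difference of the means was -3.23 percentage points (86.6 ± 1.60% in CON, 83.4 ± 1.39% in HG, SD, n = 5 each; two-sided exact permutation test, p = 0.0159, adjusted p = 0.0317 over 4 shares).

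Within the essential pair, Myl3 held 83.7, 76.4, 81.2, 83.4 and 83.6% in CON and 78.4, 77.5, 77.6, 76.8 and 79.1% in HG libraries 1 to 5. In 4 of the 5 CON libraries the share was above every HG library, and CON library 2, with its high Myl4, was below them all. The difference of -3.79 percentage points did not pass correction (exact permutation test, p = 0.0476, adjusted p = 0.0635 over 4 shares), and without CON library 2 it was -5.10 percentage points (exact permutation test, p = 0.00794). Within the regulatory pair, Myl2 held 86.2 to 91.4% in CON and 83.5 to 89.1% in HG, with a difference of -2.46 percentage points (exact permutation test, p = 0.111, adjusted p = 0.111). With each library left out in turn it ranged from -3.30 percentage points without CON library 3 to -1.58 without HG library 2. The exact permutation p, not corrected over the 4 shares, was 0.0238 and 0.214 in these cases. It was under 0.05 only without CON library 3, a case picked out after its value was seen.

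Sln and Mybphl, known from the atrium, were uneven among the CON libraries. Sln, which encodes sarcolipin, the atrial inhibitor of the calcium pump, and which was singled out after its values were seen, was at 12.7 FPKM in CON library 3 and 3.90 FPKM in CON library 2, and at 0.929 to 3.02 FPKM in the other 8. Mybphl, a relative of the binding protein found in the atrium and conduction system, was at 12.1 FPKM in CON library 3, 6.50 FPKM in CON library 2 and 1.81 to 4.67 FPKM elsewhere. Nppa and Bmp10 were also highest within CON in library 3, at 2142 and 21.6 FPKM. In CON library 2 they were at 1667 and 15.9 FPKM, below CON library 5 at 1791 and 17.0 FPKM, so they did not set CON library 2 apart. CON library 3 also had the highest Myl7 and CON library 2 the highest Myl4. Myh6 was the highest in these libraries too, at 476 FPKM in CON library 3 and 454 FPKM in CON library 2, with Myh6 shares of 15.7 and 15.2%. The amount of atrial tissue in each dissected heart was not recorded in the labels. With the group means taken away, r over the 10 libraries was taken with Myl4, Myl7, Myh6 and the ventricular Myl2, in that order. It was 0.59, 0.71, 0.71 and 0.43 for Sln and 0.65, 0.53, 0.60 and 0.48 for Mybphl. For Nppa it was 0.41, 0.40, 0.62 and 0.23, and for Bmp10 it was 0.14, 0.42, 0.39 and -0.31. These values are a description of libraries that share their depth. Over all 8 atrial markers that are not members, 3 rose (Nppa, Bmp10 and Nr2f2) and 0 fell, where 28.4% of all genes were called higher and 11.8% lower. Their summed level was 1500 to 2232 FPKM in CON and 2439 to 3569 FPKM in HG. Most of that sum is Nppa, the atrial natriuretic peptide, which the fetal ventricle also makes and which rose by 0.71 on the log2 scale (adjusted p = 0.000797, limma). Of 6 ventricular markers that are not members, 2 rose (Irx5 and Hey2, the latter not with median-of-ratios scaling or after quantile normalization) and 1 fell (Pln), and the sum was 1068 to 1164 FPKM in CON and 955 to 1034 FPKM in HG. The part of chamber makeup in the light chain and Myh6 values was not tested.

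**Figure D3:**
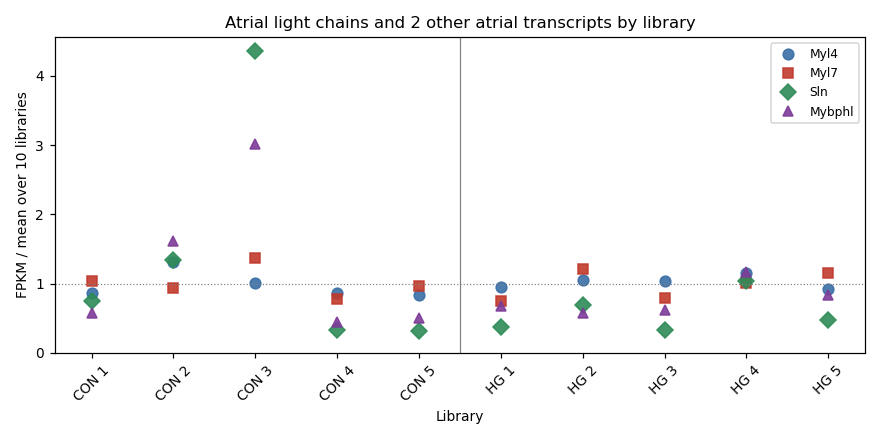
Level of Myl4, Myl7, Sln and Mybphl in each of the 10 libraries (CON left of the line, HG right), as FPKM divided by the gene's mean over the libraries, on a linear axis from 0. CON library 3 stands highest for Sln, Mybphl and Myl7, and CON library 2 highest for Myl4.

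Mybpc3 (295929), the binding protein, was at 747, 709.6, 741, 792 and 844 FPKM in CON libraries 1 to 5 and at 614, 572, 602, 604 and 619 FPKM in HG libraries 1 to 5. The HG libraries lay close together and below all CON libraries. HG was at 78.6% of CON, a log2 fold change of -0.35 ± 0.0474 (± SE; adjusted p = 0.000157, limma). Set against the heavy chains, the ranges overlapped: per 100 FPKM of heavy chain, Mybpc3 was at 23.4 to 25.5 FPKM in CON libraries and at 23.0 to 29.0 FPKM in HG libraries.

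Mylk3 (291926), the light chain kinase, was at 71.8, 77.0, 81.8, 84.0 and 84.4 FPKM in CON libraries 1 to 5 and at 85.0, 89.7, 87.8, 90.8 and 87.5 FPKM in HG libraries 1 to 5. The groups touched without overlap, with CON libraries 4 and 5 just below HG library 1. Its log2 fold change of 0.15 ± 0.0459 (± SE; adjusted p = 0.0232, limma) was near the median of 0.09 over all genes, and it was 0.06 with median-of-ratios scaling (adjusted p = 0.397) and 0.13 without CON library 2 (adjusted p = 0.0510). Per 100 FPKM of Myl2 plus Myl7 there were 0.925 to 1.20 FPKM of Mylk3 in CON and 1.38 to 1.61 FPKM in HG, without overlap. The sum of Myl2 and Myl7 itself went from 7529 ± 458 to 5859 ± 561 FPKM (mean ± SD). A transcript of unchanged level would thus also rise in this ratio, which was not set against that of other genes.

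Levels were also summed by role, as a description with no test. The 3 heavy chains together stood at 3120 ± 112 FPKM in CON libraries and 2383 ± 156 FPKM in HG libraries, the regulatory light chains at 7529 ± 458 and 5859 ± 561 FPKM, and the essential light chains at 4522 ± 153 and 3936 ± 209 FPKM (SD, n = 5 each). None of the 3 sums overlapped between the groups. Per FPKM of heavy chain there were 1.31 to 1.57 FPKM of essential light chain in CON and 1.56 to 1.77 FPKM in HG, and 2.15 to 2.66 against 2.21 to 2.96 FPKM of regulatory light chain. Both ratios overlapped, the first only between CON library 2 and HG library 1.

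**Figure D4:**
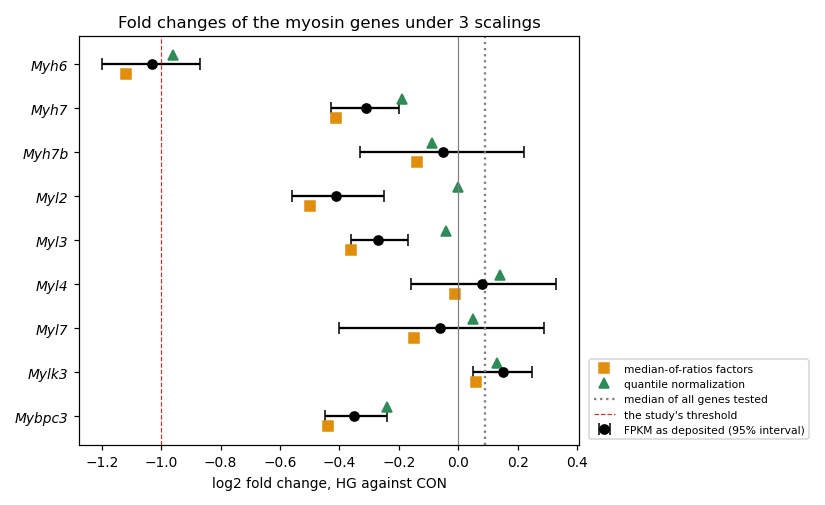
Log2 fold change of the 9 genes, HG against CON, from limma on FPKM as deposited (black points with 95% intervals) and with median-of-ratios factors (squares) or quantile normalization (triangles); the dotted line is the median of all genes tested and the dashed line the study's threshold of -1. Myh6 lies between -1.12 and -0.96 under the 3 scalings, and Myl2 and Myl3 lie near 0 after quantile normalization.

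These falls stood beside a fall of other cardiomyocyte genes. Of 8 markers of cardiomyocytes of either chamber, 7 fell and 0 rose, where 11.8% of all genes were called lower. Their median was -0.30 on the log2 scale, and the summed level was 19936 to 21126 FPKM in CON and 16617 to 19166 FPKM in HG. With median-of-ratios factors 8 of the 8 were called lower, where 17.5% of all genes were. After quantile normalization 5 of the 8 were called lower, without Tnnt2 (-0.08, adjusted p = 0.574, limma), where 15.9% of all genes were. On the FPKM as deposited, Tnnt2, cardiac troponin T, went from 3953 ± 93.5 to 3246 ± 175 FPKM (SD, n = 5 each; log2 fold change -0.29), and Ldb3 and Csrp3, of the Z-disc, had log2 fold changes of -0.40 and -0.41. Over the whole list the log2 fold changes ran from -0.67 (Cmya5) to -0.10 (Tnni1), both genes picked out after the values were seen. Beside these, the log2 fold changes of Myh7, Myl2, Myl3 and Mybpc3 were -0.41 to -0.27 and that of Myh6 was -1.03. The part of cardiomyocyte content in these values was not tested.

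The other cell types gave no single direction, and of all genes tested 28.4% were called higher and 11.8% lower. Smooth muscle markers rose in 3 of 5 (summed level 681 to 802 FPKM in CON, 912 to 1147 FPKM in HG), fibroblast markers rose in 2 and fell in 3 of 7, endothelial markers rose in 1 of 6, and macrophage markers rose in 2 and fell in 1 of 5. Epicardial markers fell in 1 of 4, and red cell genes rose in 3 and fell in 7 of 12. Among the genes of these lists averaging 1 FPKM or more, the embryonic globins Hbz and Hbe1 (log2 fold changes 4.07 and 2.24), the α globin Hba-a3 (-1.54) and Tnni2 passed the study's threshold, and the smooth muscle calponin Cnn1 had 0.91. Of the skeletal muscle list, 5 of 8 genes were tested, 2 rising and 2 falling. Those that fell were Ckm (log2 fold change -0.97) and Acta1 (-0.36, and -0.21 with adjusted p = 0.120 in limma after quantile normalization), which are also made in the heart. Those that rose were Tnni2, the fast skeletal troponin I (1.26, adjusted p = 0.0174, limma), and the myogenic factor Myog, from 0.278 ± 0.108 to 0.540 ± 0.181 FPKM (mean ± SD, adjusted p = 0.0237, limma). Myod1 and Myf6, named like Myog after their values were seen, had means under the filter and were at most 0.188 and 0.134 FPKM in a library. The part of these cell types in the myosin values was not tested.

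The other myosins were looked at as lists. The further muscle heavy chains were almost silent: of 6 in the table only Myh3, the embryonic skeletal chain, passed the filter, with CON libraries at 1.77 to 4.63 FPKM and HG libraries at 3.66 to 5.59 FPKM (log2 fold change 0.53, adjusted p = 0.0800, limma). Of the non-muscle and smooth muscle myosins, 3 of 8 were called higher and 0 lower (median log2 fold change 0.12), where 28.4% of all genes were called higher and their median was 0.09. With median-of-ratios scaling 2 rose and 1 (Myl6) fell, where 15.6% of all genes were called higher and 17.5% lower. Myh10, the non-muscle heavy chain IIB of dividing and immature cells, rose from 74.2 ± 0.978 to 94.8 ± 5.50 FPKM (mean ± SD; 0.35 on the log2 scale, adjusted p = 4.72e-05, limma), and Myl12a, a non-muscle regulatory light chain, had 0.29 (adjusted p = 0.000757). Myh9, the non-muscle chain IIA, had 0.22 (adjusted p = 0.0169), and 0.13 with median-of-ratios scaling, where it was not called. Myl9 and Myl6, the most abundant of the list, had log2 fold changes of -0.02 and -0.05 and were not called.

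Among 6 other light chains and binding proteins of striated muscle, 1 rose and 1 fell (median log2 fold change -0.17). Of all genes tested, 28.4% were called higher and 11.8% lower. Myl1, the fast skeletal and embryonic essential chain, fell from 3.13 ± 0.586 to 2.02 ± 0.484 FPKM, and Mylpf, the fast skeletal regulatory chain, rose from 0.753 ± 0.210 to 1.64 ± 0.582 FPKM (SD, n = 5 each; adjusted p = 0.00962 and 0.0108, limma). Both were at a small fraction of the cardiac chains. Of 8 genes tested that set light chain phosphorylation besides Mylk3, 1 rose and 0 fell (median -0.01): Ppp1r12a, the targeting subunit of myosin phosphatase, rose by 0.22 on the log2 scale (adjusted p = 0.00469, limma), which was not called with median-of-ratios scaling (0.13, adjusted p = 0.0560). The catalytic subunit Ppp1cb had -0.06 (adjusted p = 0.30). Under median-of-ratios scaling the list had 0 rising and 2 falling, Ppp1cb and Dapk3, where 15.6% of all genes were called higher and 17.5% lower.

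Of 11 genes that fold, assemble and turn over myosin, 8 were called lower and 0 higher (median log2 fold change -0.24), where 11.8% of all genes were called lower. The count was 8 of 11 also with median-of-ratios scaling and after quantile normalization, where 17.5 and 15.9% of all genes were called lower. Hspa8, a chaperone of all cells, went from 1090 ± 116 to 638 ± 52.1 FPKM (mean ± SD; -0.77 on the log2 scale, adjusted p = 1.68e-05, limma), and Smyd1, a muscle methyltransferase needed for thick filament assembly, had -0.24 (adjusted p = 0.000770). Trim63, the ubiquitin ligase MuRF1 that marks myosin for degradation, had -0.32 (adjusted p = 0.000153), and the chaperone Hsp90aa1 had -0.17 (adjusted p = 0.0149).

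**Figure D5:**
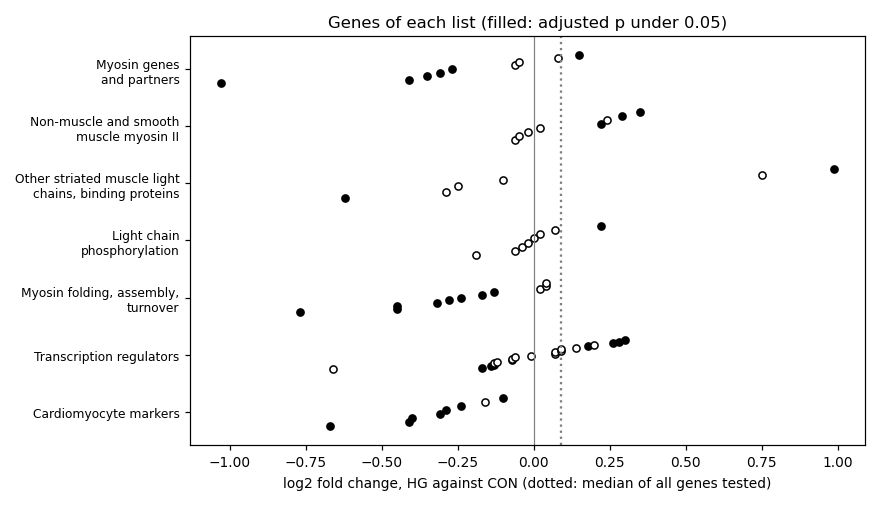
Log2 fold change, HG against CON, of each tested gene of the myosin set, of 5 lists around it and of general cardiomyocyte markers; filled points have an adjusted p under 0.05 in limma and the dotted line is the median of all genes tested. The myosin folding and cardiomyocyte lists lie mostly below 0, and the called non-muscle myosins lie above it.

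Of 20 transcription regulators tested, 4 rose and 3 fell (median log2 fold change 0.03), where 28.4% of all genes were called higher and 11.8% lower. On the FPKM as deposited this list was thus called no more often than all genes, of which 40.1% were called. With median-of-ratios scaling 2 rose and 6 fell, where 15.6% of all genes were called higher and 17.5% lower. Gata4, a factor of heart muscle genes, rose from 85.2 ± 3.02 to 102 ± 4.19 FPKM (mean ± SD; 0.26 on the log2 scale, adjusted p = 0.000214, limma). Nr2f2, which sets atrial identity, had 0.30 (adjusted p = 0.00496). Rxra, the partner of the thyroid hormone receptors, had -0.17 (adjusted p = 0.0232), and Tbx20 had 0.09 (adjusted p = 0.25). The thyroid hormone receptors, singled out after their values were seen, were Thra at 59.3 ± 3.06 and 54.1 ± 3.45 FPKM in the respective groups (-0.13 on the log2 scale, adjusted p = 0.0486, limma) and Thrb, which was near the filter at 0.211 and 0.0983 FPKM (adjusted p = 0.0698).

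The libraries also differed in transcripts of the Y chromosome, which split each group in the same way. Eif2s3y was at 31.8 to 35.0 FPKM in CON libraries 1 and 4 and HG libraries 1 and 3, and at most 0.0931 FPKM in the other 6. Myh6 was lower in the libraries with Y transcripts in CON, at 374 and 407 FPKM against 447 to 476 FPKM. In HG it was 190.4 and 202 FPKM against 197 to 235 FPKM. Myl7 in HG was at 575 and 618 FPKM with Y transcripts and at 777 to 934 FPKM without, while in CON its ranges overlapped, 603 to 804 FPKM with and 728 to 1066 FPKM without. This split was chosen after the values were seen, 2 libraries against 3 in a group allow no useful test, and none was made. Of the CON libraries without Y transcripts, libraries 2 and 3 also had the highest Sln and Mybphl, while library 5 did not (Sln at 0.929 FPKM). The part of atrial tissue in this split was not tested. Within the libraries with Y transcripts HG was at 50.1% of CON for Myh6, and within those without at 48.2%, and the Myh6 share was 12.9 and 8.40% in the first and 14.9 and 9.45% in the second.

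Likeness to Myh6 was measured over the 10 libraries as Pearson's r after the mean of each group was taken away, among 11700 genes (mean FPKM of 1 or more). The closest were Slc25a20, the mitochondrial carnitine-acylcarnitine carrier (r = 0.93), Bad (r = 0.92) and Lmod3, a leiomodin of the thin filament (r = 0.91), of which Lmod3 also fell between the groups (log2 fold change -1.38). For Myh7 they were Smg9, Hmga1 and Bap1 (r = 0.96, 0.93 and 0.92), and for Myl4 Rad17, Ndufa13 and Itgb5 (r = 0.97, 0.96 and 0.92). The points share their libraries and their depth, and the values are a description with no test. Each is among the highest of 11700 values over only 10 libraries, and how high such values run for unrelated genes was not tested. Among the members themselves, Myh6 and Myh7 had r = 0.31 and Myl4 and Myl7 r = 0.15.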

How the data were processed

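Stranded mRNA libraries of fetal rat heart tissue (5 CON, 5 HG) were analysed from the FPKM per gene that the authors deposited, in which reads were divided by gene length and library size. The submitters' processing notes name fastp, HISAT2, HTSeq, R 3.2.0 and build mRatBN7.2, with no role or order. The annotation version is not given in the sources used here. The study's methods speak of pooled RNA, whereas the table holds 10 separate columns (0 per-sample columns unused). DESeq, named in the methods, takes counts and was not used. Instead, log2(FPKM + 0.1) was fitted with limma 3.58.1 in R 4.3.3 (moderated test with a trend, no covariate) over genes whose mean FPKM was 0.1 or more. In Python 3.11.15 (numpy 2.4.6, pandas 2.3.3), the reads behind the FPKM were recovered from the value of 1 read per gene (tolerance 0.02 reads, 100% of genes), and were used for depth and for voom as an alternative. The model and the recovery were tested on simulated data. For shares, exact permutation tests (two-sided) were used, and sums, lists and likeness were only described. The members were the 9 genes named. Genes of lists could be named if past the study's threshold, among the 3 smallest adjusted p or the 2 highest levels of their list (mean of at least 1 FPKM). All past the threshold are named, but not all others, and genes singled out with their values in view are marked. The members and lists were chosen with earlier results of these data known. Other settings tried were median-of-ratios factors and quantile normalization for scaling, a pseudocount of 1 or 0.01, all genes or only those of 1 FPKM or more, a covariate for Y transcripts, a block for the replicate number, fits without a trend or with array weights, omission of hemoglobin, voom, each library left out, and, chosen after seeing the data, CON libraries 2 and 3 left out together. For shares they were reads not divided by length, log2 ratios, a sign-flip test and the libraries left out. RefSeq start windows of Myh6 and Myh7 begin inside the genes and were not used.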

Additional observations from a re-analysis of the deposited data

Results flagged for a closer look

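The summed FPKM of the 3 heavy chains was 3315 in CON library 5, apart from 3029 to 3100 in the other 4 CON libraries. Its gap to the nearest library was 0.750 of the range of the group, above Dixon's 95% critical value of 0.71 for 5 libraries. A total of 42 groups of 5 values were looked at in this way (the genes, the shares and the sums), of which 1 stood out, and chance gives about 1 in 20. CON library 5 had the highest Myh7 (2803 FPKM), Myh7b (64.2 FPKM) and Mybpc3 (844 FPKM) of all 10 libraries, and its removal left the log2 fold changes of Myh6, Myh7 and Mybpc3 called.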

How the results depend on the processing

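The log2 fold changes of Myh6, Myh7 and Mybpc3 kept their direction and their call under the 23 alternatives, in ranges of -1.12 to -0.96, -0.41 to -0.19 and -0.44 to -0.24. Those of Myl2 and Myl3 did so in 22 of 23. With quantile normalization 3 members were called lower, instead of 5, and 0 passed the study's threshold. Since Myl2 held rank 2 or 3 in each library, that method by its construction gives it nearly the same value in each. With median-of-ratios factors 0 members were called higher, and Myl4 was at -0.01. The direction of Myl7 was not stable, at 0.05 after quantile normalization, 0.06 without CON library 3, 0.04 without HG library 1, 0.01 without HG library 3 and 0.06 without CON libraries 2 and 3, where 0 members passed the study's threshold. Over the leave-outs of 1 library Myl7 ranged from -0.15 to 0.06, Myh7b from -0.12 to 0.05 (without CON library 5) and Myl4 from 0.03 to 0.20 (without CON library 2). With each library left out in turn, the number of members called higher was 0 to 1 (0 without CON library 2) and of those past the study's threshold 0 to 1 (0 without CON library 3 and without HG library 3).

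With 1 library left out, the share differences ranged from -5.48 to -4.64 percentage points for Myh6, -3.30 to -1.58 for Myl2, -5.10 to -3.28 for Myl3 and -3.79 to -2.65 for the ventricular pair. The exact permutation p of the Myl3 share lay between 0.00794 and 0.0952, the lowest without CON library 2 and above 0.05 in the other 9. Without CON libraries 2 and 3 the difference was -5.70 for the Myl3 share and -4.12 for the Myh6 share (exact permutation test, p = 0.0179 for each). The replicate numbers did not pair the libraries (correlations of same-numbered deviations from -0.126 to 0.108), and the replicate block in limma changed no call among the members, with Myh6 at -1.03 (adjusted p = 0.000152). As a replicate block for the shares, the exact sign-flip test of the 5 pairs, which cannot go below 0.0625, gave p = 0.0625 for Myh6 (-5.04), 0.125 for Myl3 (-3.79) and 0.0625 for the ventricular pair (-3.23). At this depth counting error was small for all 9 genes, and the number of libraries limits the precision.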

Other observations

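Within the groups, the members did not vary as a block, as seen after their values were known. Myh7b and Mybpc3 had r = 0.88 over the 10 libraries with the group means taken away, and both were highest in CON library 5. Myl4 and Mybpc3 had r = -0.74, Myh7b and Myl4 r = -0.62, and Myh6 and Myl7 r = 0.64. Myh6 had r = 0.71 with Sln. With Eif2s3y of the Y chromosome, Myl4, Myl7, Myh6 and Myl2 had r = -0.42, -0.74, -0.78 and -0.45, in that order. These values are a description over 10 libraries of 36 pairs of members and some other genes, with no test.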
